A study of Homo sapiens with 16 samples.

Results

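The regions described here are stretches of open chromatin that lie inside genes or at their ends: 2721 regions annotated to a protein-coding exon, 2450 annotated to the transcription termination site (TTS) of a gene and 1527 annotated to a 3′ UTR, which together make 6698 of the 151654 open regions in the deposited table (4.42%). They were chosen by that annotation alone, which was set by the position of the centre of each region and used no signal. The study profiled acetylation of lysine 27 on histone H3 (H3K27ac) by ChIP-seq in THP-1, a monocytic cell line established from an acute myeloid leukemia, and counted the reads in windows of 1000 bp centred on regions found open by ATAC-seq. The WT cells are labelled as carrying Cas9 only, and the protocol gives a lentiviral control guide RNA for them, while in the knockout (KO, USP18-/-) cells the USP18 gene was disrupted with lentiviral guides. Each genotype was left untreated or given interferon alpha (IFN) at 1000 U/ml for 6 h. There were 2 H3K27ac libraries in each of the 4 groups, described by the study as independent samples, and the p-values below measure the spread between those libraries. The knockout cells were grown from sorted single cells, so a difference between the genotypes and a difference between clones cannot be told apart here.

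H3K27ac is deposited by the acetyltransferases p300 and CBP on the nucleosomes that flank active promoters and enhancers, and regions far from a promoter that carry it are commonly read as enhancers. Enhancers can lie within exons and behind the ends of genes as well as in introns and between genes. Type I IFN activates the transcription factor complex ISGF3, which binds the interferon-stimulated response element (ISRE) in the control regions of interferon-stimulated genes. USP18 removes the ubiquitin-like protein ISG15 from its targets and also dampens signaling from the IFN receptor.

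The core of the ISRE, written here as GAAA followed by any 2 bases and GAAA again, was searched for on both strands of every window in hg38, and the 12 sequences printed next are the matches in those named regions whose H3K27ac rose most with IFN in knockout cells, shown because several of the rises described below lie over such a core. Of the 41 named regions that rose with IFN in either genotype, 23 hold a core. Each run has 30 bases read 5′ to 3′ on the strand given, the capitals mark the core, and the coordinates are those of the printed bases. The cores of CUL5, TASOR2 and PEAK1 lie in coding exons, that of CXCL11 in an intron, that of U2SURP between genes, and the other 7 in the untranslated or noncoding part of an exon in the gene annotation.
CUL5, exon region (chr11:108070170-108070199, plus strand): caagagaaatGAAACTGAAAgtaggtaaaa
SAR1B, 3′ UTR region (chr5:134605042-134605071, plus strand): gaaagaagatGAAAGTGAAAacagaatagt
RSAD2, exon region (chr2:6877622-6877651, minus strand): ttccacatgtGAAACTGAAAgttgaaacag
U2SURP, TTS region (chr3:143061137-143061166, minus strand): gtcaaattcaGAAACAGAAAgtagaatgat
AIFM2, TTS region (chr10:70112226-70112255, plus strand): ttaagaaaaaGAAAATGAAAggaaaaaaat
TASOR2, exon region (chr10:5730944-5730973, plus strand): agtgagaaaaGAAACTGAAAcaaaaaagga
POU2F2, 3′ UTR region (chr19:42089305-42089334, plus strand): aaagagaaccGAAAAAGAAAtcaaaggagg
SNX20, 3′ UTR region (chr16:50666922-50666951, plus strand): aagagacagaGAAAGCGAAAgtgggagaga
PEAK1, exon region (chr15:77179903-77179932, minus strand): tgaagaaataGAAACAGAAAgcaaagtgcc
CXCL11, exon region (chr4:76034971-76035000, minus strand): cagatcttttGAAAAAGAAAataatgtgga
SNX20, TTS region (chr16:50665468-50665497, minus strand): aaacagctggGAAACCGAAActttctccag
LRRK1, 3′ UTR region (chr15:101070829-101070858, plus strand): ttgactccatGAAATTGAAActtacgtgga
The gene given is that of the annotated transcript, and the printed sequence is reference sequence. A match describes letters in a window and is neither a bound site nor a cause. Of the 151654 windows of the table, 17.2% held the core, compared with 10.6% of the windows at promoters, 12.5% of the exon windows, 13.6% of the TTS windows and 16.7% of the 3′ UTR windows.

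The 8 libraries had 24712371 to 30501088.5 mapped tags each, of which 36.1 to 42.5% fell in the open regions. Levels are given in CPM, counts scaled by library size, and 1 CPM stood for 9.82 to 11.6 counts, and because every window is 1000 bp long, levels can be compared between regions. Of the 11 monocytic marker genes looked up, 8 had a promoter window, with 2.25 to 92.0 CPM. Of 18 markers of other cell types, 2 had a promoter window (CD5 and PAX5, 1.42 to 6.14 CPM). The summed level of the monocytic markers was 223 CPM in untreated and 216 CPM in IFN-treated WT cells, and 335 and 341 CPM in untreated and IFN-treated knockout cells. Most of this sum came from SPI1, FCER1G and TYROBP, whose group means ran from 66.9 to 130, 28.4 to 92.6 and 22.6 to 86.6 CPM. The sum does not show how each marker moved. At the start of USP18 itself (chr22:18149602-18150602) the libraries held 7.85 and 7.62 CPM in untreated WT cells, 18 and 15.0 CPM in IFN-treated WT cells, 8.20 and 8.47 CPM in untreated knockout cells and 49.2 and 41.7 CPM in IFN-treated knockout cells. The mark at the start of an edited gene does not report on its protein, so these values do not check the knockout.

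The annotation orders its classes by priority, with promoters first and TTS before exons, so an exon region lies outside the promoter zone, which runs from 1000 bp before to 100 bp after a start site. Of the exon regions, 651 lay in the first exon of the annotated transcript, 476 in the last exon of a transcript with 2 or more, and 146 in the only exon. The TTS class held the ends of 1736 coding and 714 noncoding transcripts, and 145 of the latter were microRNAs. The 3 classes covered 5248 genes. TTN, the gene of the giant muscle protein titin, had the most regions, 8.

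The classes differed in their setting. Within 1000 bp of a transcription start site (TSS) lay 728 exon regions (26.8%), 356 TTS regions (14.5%) and 16 of the 3′ UTR regions (1.05%). The nearest start site belonged to a gene other than the annotated one for 31.8% of the exon regions, 48.7% of the TTS regions and 58.5% of the 3′ UTR regions. Median GC content was 56.4% in exon windows, 50.5% in TTS windows and 48.0% in 3′ UTR windows, beside 61.9% in promoter windows and 44.8% in introns. The ratio of observed to expected CpG, which is high in CpG islands, had a median of 0.361, 0.265 and 0.247 in the exon, TTS and 3′ UTR windows and of 0.760 in promoter windows.

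H3K27ac was low at most of these regions. A count of at least 10 in at least 2 of the 8 libraries was reached by 5770 of the 6698 (86.1%), which were tested, namely 2327 exon, 2117 TTS and 1326 3′ UTR regions. Averaged over the 8 libraries, the median level of the tested regions was 1.90 CPM for exons, 1.92 CPM for TTS and 1.67 CPM for 3′ UTR regions, next to 2.11 CPM over all tested regions and 11.9 CPM at promoters. In exons the medians of the single libraries ran from 1.83 to 1.96 CPM, and in 3′ UTRs from 1.60 to 1.74 CPM. With the libraries scaled by the sum of their counts, the medians of all 4 knockout libraries (1.62 to 1.84 CPM in exons, 1.54 to 1.84 CPM at TTS and 1.39 to 1.60 CPM in 3′ UTRs) lay below those of all 4 WT libraries (1.97 to 2.09 CPM, 2.03 to 2.20 CPM and 1.74 to 1.87 CPM). At promoters the 4 WT libraries had medians of 10.3 to 10.8 CPM and the 4 knockout libraries 13.1 to 13.7 CPM.

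**Figure D1:**
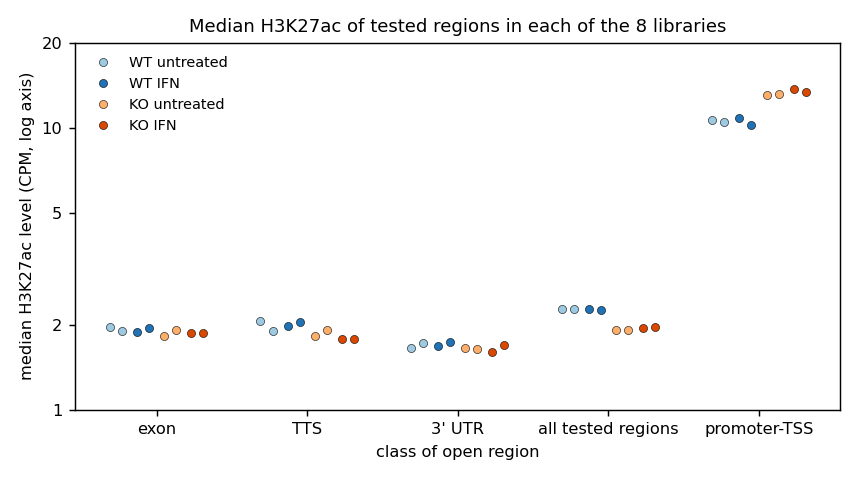
Median H3K27ac level (CPM, log axis) of the tested regions of each class in each of the 8 libraries, 1 point per library and 1 color per group. The exon, TTS and 3′ UTR points lie between 1.60 and 2.07 CPM in all groups, while the promoter points lie above 10 CPM and are higher in the knockout libraries.

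The shares of all counts taken by the exon and TTS classes were close in the 2 WT groups. Exon regions held 1.70% ± 0.00429 (SD, n = 2) of the counts in untreated WT cells, 1.69% ± 0.0456 in IFN-treated WT cells, 1.85% ± 0.0462 in untreated knockout cells and 1.77% ± 0.0195 in IFN-treated knockout cells. The 3′ UTR regions held 0.782% ± 0.00546, 0.766% ± 0.0155, 0.726% ± 0.00369 and 0.656% ± 0.00743 (SD, n = 2) in the same order. For the 3′ UTR class the knockout libraries lay below the WT libraries in both treatments, and the IFN-treated knockout libraries lay below the untreated ones. For the TTS class the shares ran from 1.67 to 1.78%. With 2 libraries against 2 an exact permutation test cannot go below p = 0.333, so no test of the shares was made. The shares depend on what the other regions took: those at promoters were 29.4% ± 0.248, 29.6% ± 0.904, 34.5% ± 0.281 and 35.2% ± 0.173 (SD, n = 2).

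Distance to a start site went with the level in all 3 classes, taken here over all their regions, tested or not. Within 1000 bp of a start site the median of the mean over the 8 libraries was 5.16 CPM for exon regions (n = 728), 5.46 CPM for TTS regions (n = 356) and 3.91 CPM for 3′ UTR regions (n = 16). Beyond 10000 bp it was 1.20, 1.34 and 1.34 CPM. First exons had a median of 4.65 CPM and single-exon genes 4.40 CPM, while exons from the third to the one before the last had 1.19 CPM. A TTS region can sit on the promoter of the next gene: the 174 TTS regions within 1000 bp of the start of another gene had a median of 11.4 CPM, compared with 1.44 CPM in the remaining 2276. Regions with 10 CPM or more made up 17.5% of exon, 17.6% of TTS and 12.05% of 3′ UTR regions. Windows could also overlap one annotated as a promoter, which was so for 472 exon, 188 TTS and 12 of the 3′ UTR windows, and such windows share reads with the promoter.

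**Figure D2:**
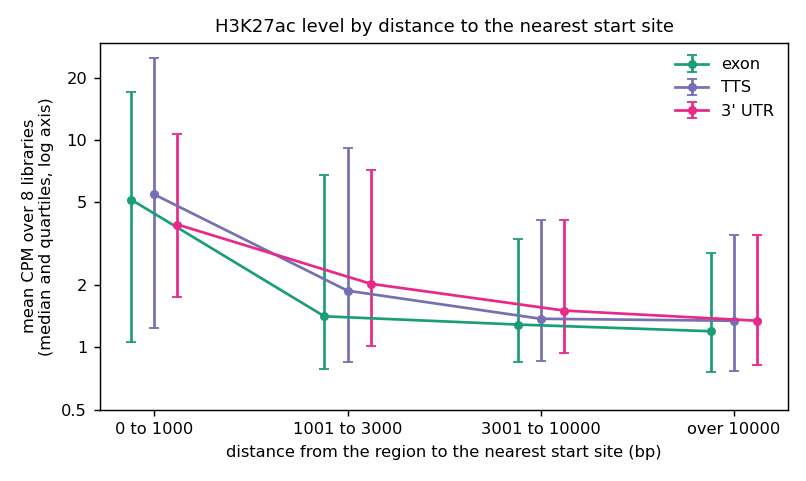
Mean level over the 8 libraries (CPM, log axis) against the distance to the nearest start site for exon, TTS and 3′ UTR regions; points are medians and bars run from the lower to the upper quartile over regions. In each class the median falls from 3.91 to 5.46 CPM within 1000 bp to 1.20 to 1.34 CPM beyond 10000 bp.

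The highest region of each class was far above these medians. Just behind CITED4, which encodes a coactivator that binds p300 and CBP, the TTS region chr1:40860421-40861421 held 693 and 673 CPM in untreated WT cells, 671 and 638 CPM with IFN, 652 and 677 CPM in untreated knockout cells and 543 and 539 CPM in knockout cells with IFN. It lies 1425 bp from the start of this short gene, and the 2 IFN-treated knockout libraries were below the other 6. The last exon of SMAP2, a gene for an Arf GTPase-activating protein, carried the highest 3′ UTR region (chr1:40421728-40422728), with 126 and 133, 110.5 and 109, 144 and 153 and 96.7 and 101 CPM in the same order of groups. Its groups did not overlap, but no difference reached a log2 change of 1. First place among exons went to exon 1 of NSMAF, an adaptor of the TNF receptor, 128 bp from its start (chr8:58658779-58659779). This region held 148 and 136 CPM and 149 and 136 CPM in untreated and IFN-treated WT cells and 236 and 228 CPM and 345 and 324 CPM in untreated and IFN-treated knockout cells. Under IFN the knockout exceeded WT by 1.23 ± 0.07 (SE) on the log2 scale (adjusted p = 1.2e-26), a call that is lost when libraries are scaled by the sum of their counts.

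In WT cells IFN changed H3K27ac at few of these regions. A region was called when edgeR gave an adjusted p under 0.05 over all 123276 tested regions and the log2 change exceeded 1 in size, and 11 members rose (5 exon, 2 TTS and 4 3′ UTR regions) and 3 fell. Of all tested regions 0.344% rose and 0.0381% fell, and of the members 0.191% rose and 0.0520% fell. None of the 3′ UTR regions fell in the edgeR fit, where 62 of them had a negative change at an unadjusted p under 0.05; DESeq2 called 0 as well, with 20 such regions. The regions that rose belonged in part to genes on the list of interferon-stimulated genes used below and in part to genes not on it.

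Among the genes on the list was HERC6, whose product is a HECT-type ubiquitin ligase. Its exon 1 region (chr4:88378505-88379505) held 5.06 and 6.54 CPM in untreated and 24.1 and 21.7 CPM in IFN-treated WT cells. In knockout cells it went from 15.4 and 15.6 to 86.5 and 82.7 CPM. All IFN-treated libraries were above the untreated ones of their genotype, with a log2 change of 1.97 ± 0.16 (SE) in WT cells (adjusted p = 1.0e-17) and 2.45 ± 0.12 in knockout cells (adjusted p = 9.2e-33). The knockout libraries were also higher before treatment, by 1.40 ± 0.16 (adjusted p = 9.3e-12). HERC5, the neighboring gene, encodes the main ligase for ISG15. Its exon 1 region (chr4:88456890-88457890) had 1.55 and 2.45 CPM, 4.76 and 4.62 CPM, 1.75 and 1.73 CPM and 11.2 and 15.5 CPM in untreated WT, IFN-treated WT, untreated knockout and IFN-treated knockout cells. RSAD2 encodes viperin, an antiviral enzyme, and its exon 1 region (chr2:6877590-6878590, with a core printed above) had 0.413 and 0.635 CPM, 2.38 and 1.64 CPM, 0.524 and 0.289 CPM and 10.8 and 10.9 CPM in the same groups. At both genes the untreated libraries of the 2 genotypes lay close together and the IFN-treated knockout libraries were the highest. In WT cells the log2 change was 1.21 ± 0.29 (adjusted p = 0.0156) for HERC5 and 1.90 ± 0.46 (adjusted p = 0.0155) for RSAD2. These 2 calls are less firm: DESeq2 made neither, the HERC5 call was lost without WT untreated replicate 1 or without either IFN-treated WT library, and the RSAD2 call without either untreated WT library or without WT IFN replicate 1. All 3 exon 1 regions lie within 425 bp of a start site.

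A TTS region at the end of RNF31, the gene of the HOIP subunit of the linear ubiquitin ligase LUBAC, lies 413 bp from the start of IRF9, which encodes the DNA-binding subunit of ISGF3. This window (chr14:24161126-24162126) also overlaps a promoter window. It held 15.6 and 14.4 CPM in untreated and 45.0 and 46.9 CPM in IFN-treated WT cells, and 27.8 and 24.4 CPM and 107 and 98.4 CPM in untreated and IFN-treated knockout cells. The rise with IFN was 1.61 ± 0.12 (SE) in WT (adjusted p = 2.0e-19) and 1.97 ± 0.10 in knockout cells (adjusted p = 4.8e-30), and the difference of the 2 rises, 0.36 ± 0.16, did not pass the test (adjusted p = 0.146).

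Other rises in WT cells lay at the ends of genes. SNX20, which encodes a sorting nexin that binds the adhesion molecule PSGL-1, had 2 of them. Its 3′ UTR region (chr16:50666419-50667419) held 7.44 and 6.17 CPM, 19.1 and 19.5 CPM, 4.19 and 5.00 CPM and 64.3 and 64.3 CPM in untreated WT, IFN-treated WT, untreated knockout and IFN-treated knockout cells. Its TTS region (chr16:50665029-50666029) held 6.61 and 5.90 CPM, 23 and 22.1 CPM, 6.98 and 5.77 CPM and 74.3 and 66.5 CPM in these groups. Both windows have a printed core, and in both the untreated libraries lay below 8 CPM in either genotype. IFN raised the 3′ UTR region by 1.51 ± 0.16 (SE) in WT (adjusted p = 8.7e-12) and by 3.81 ± 0.15 in knockout cells (adjusted p = 1.3e-38). In LRRK1, the gene of a kinase of the leucine-rich repeat family, the 3′ UTR region chr15:101070306-101071306 held 6.41 and 5.36 CPM and 18.9 and 17.5 CPM in untreated and IFN-treated WT cells and 4.36 and 4.33 CPM and 46.8 and 43.6 CPM in untreated and IFN-treated knockout cells. The 3′ UTR region of LINGO1 (chr15:77613007-77614007), a transmembrane protein best known from neurons, had 1.34 and 1.27 CPM, 5.35 and 7.28 CPM, 1.22 and 1.35 CPM and 40.1 and 35.3 CPM in the same groups. It showed the largest WT rise of the 11, 2.26 ± 0.29 (SE, adjusted p = 9.8e-09), and its window holds no ISRE core.

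These regions of HERC6, RNF31, SNX20 (both), LRRK1 and LINGO1 were the 6 that DESeq2 also called and that held in all 8 fits with 1 library left out. The remaining rises were those of HERC5 and RSAD2 and of 3 regions inside genes, named here because the group is small: exon 9 of SLC9A8, a sodium/proton exchanger, exon 11 of USP8, an endosomal deubiquitinase, and the 3′ UTR of RABL3, a small GTPase. SLC9A8 went from 0.413 and 0.454 CPM to 2.18 and 1.33 CPM in WT cells, USP8 from 2.79 and 1.81 CPM to 6.24 and 4.21 CPM and RABL3 from 3.20 and 3.09 CPM to 5.45 and 7.38 CPM. DESeq2 called none of the 3, and each was lost in 2 or 3 of the fits with 1 library left out: SLC9A8 without either untreated WT library or WT IFN replicate 1, USP8 without WT untreated replicate 2 or WT IFN replicate 1, and RABL3 without either untreated WT library or WT IFN replicate 2. The rises of RABL3 and USP8 were larger in knockout cells, as described with the genotype difference.

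The regions that fell in WT cells were 3 in number. Exon 1 of PROX2, a homeobox gene, went from 4.54 and 3.27 CPM to 1.88 and 1.33 CPM (log2 change -1.26, adjusted p = 0.0339), and a TTS region of MATN2, an extracellular matrix protein, from 1.96 and 1.72 CPM to 0.595 and 0.308 CPM (-1.99, adjusted p = 0.0469). DESeq2 called 0 of the members lower, with 74 of them negative at an unadjusted p under 0.05. The calls of PROX2 and MATN2 were lost without any 1 of the 4 WT libraries. Without WT IFN replicate 1 the edgeR count was 1.

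In knockout cells IFN changed more of the regions. Of the 5770 tested members 333 rose (121 exon, 115 TTS and 97 3′ UTR regions) and 239 fell (97, 94 and 48), against 7.14% of all tested regions that rose and 4.28% that fell. The share that rose was 5.20% of exon, 5.43% of TTS and 7.32% of 3′ UTR regions, and the share that fell was 4.17%, 4.44% and 3.62%. With the libraries scaled by the sum of their counts 273 rose and 365 fell, so that 42.8% rather than 58.2% of the called members were rises. That scaling moved the median log2 change of all tested regions from -0.01 to -0.14. The balance also turned without the threshold on the fold, where 595 rose and 678 fell. The 11 members raised in WT cells were all among the 333, which is 100% of the first set and 3.30% of the second, and the median log2 change of the 333 was 1.63 in knockout and 0.28 in WT cells.

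**Figure D3:**
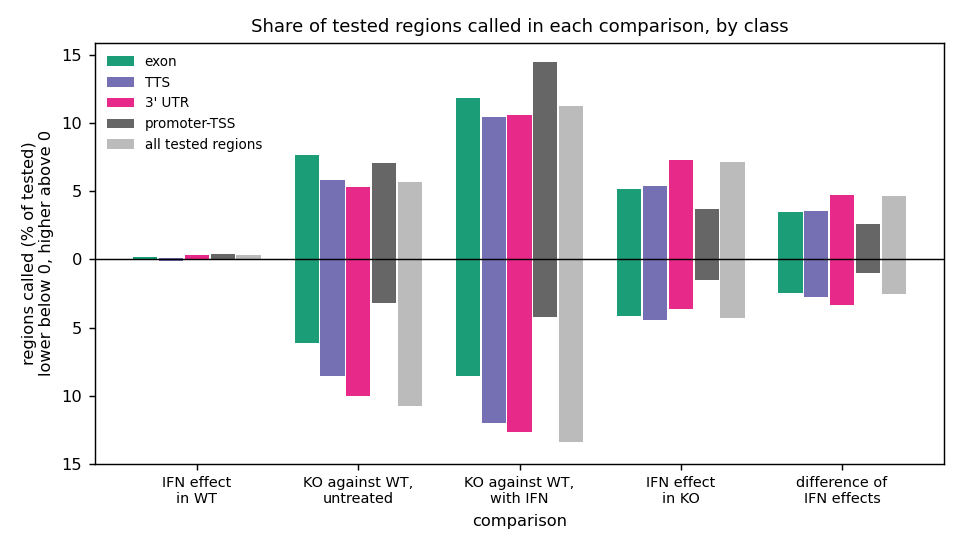
Percentage of tested regions called higher (above 0) and lower (below 0) in each of the 5 comparisons for exon, TTS, 3′ UTR, promoter and all tested regions. For IFN in WT cells all bars are under 0.5%, while for IFN in knockout cells 5.20 to 7.32% of the 3 classes were higher and 3.62 to 4.44% lower.

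By a rule of size, the largest rises of each class were named, and in exons they were CUL5, RSAD2 and TASOR2. Exon 8 of CUL5 (chr11:108069646-108070646), a scaffold of cullin-RING ubiquitin ligases, held 0.207 and 0.181 CPM in untreated WT, 0.892 and 1.13 CPM in IFN-treated WT and 0.611 and 0.385 CPM in untreated knockout cells. In IFN-treated knockout cells it held 19.3 and 14.8 CPM, far above the other 6 libraries. The log2 change with IFN was 5.05 ± 0.30 (SE) in knockout cells (adjusted p = 3.7e-26), and 2.31 ± 0.67 in WT cells, where it was not called (adjusted p = 0.086), and the difference of the 2 changes, 2.74 ± 1.06, was not called either (adjusted p = 0.082). Exon 11 of TASOR2 (chr10:5730495-5731495), a paralog of a subunit of the HUSH silencing complex, had 1.34 and 1.72 CPM, 2.08 and 1.74 CPM, 1.31 and 2.21 CPM and 32.6 and 26.1 CPM in untreated WT, IFN-treated WT, untreated knockout and IFN-treated knockout cells. Exon 5 of PEAK1 (chr15:77179342-77180342), which encodes a pseudokinase of the cytoskeleton, had 0.516 and 1.18 CPM, 0.892 and 1.23 CPM, 1.57 and 0.962 CPM and 16.5 and 14.7 CPM in these groups. In both the 2 IFN-treated knockout libraries stood apart from the other 6, which overlapped. Their log2 changes in knockout cells were 4.07 ± 0.22 (adjusted p = 1.6e-29) and 3.60 ± 0.26 (adjusted p = 1.7e-21). All 3 windows have a core in coding sequence among those printed above. RSAD2, described for WT cells, stood between CUL5 and TASOR2 with 4.68 ± 0.34 (adjusted p = 5.2e-21).

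At TTS regions the largest rises were at AIFM2, U2SURP and RNU6-1. AIFM2 encodes an oxidoreductase that protects against ferroptosis, and its TTS region (chr10:70111832-70112832) held 0.930 and 0.998 CPM, 1.69 and 2.15 CPM, 1.40 and 0.481 CPM and 18.1 and 18 CPM in untreated WT, IFN-treated WT, untreated knockout and IFN-treated knockout cells. U2SURP encodes a splicing factor of the U2 snRNP, and its TTS region (chr3:143060601-143061601) had 1.55 and 1.81 CPM, 2.68 and 2.56 CPM, 0.436 and 0.866 CPM and 14.2 and 11.1 CPM. The untreated knockout libraries of U2SURP were below the WT libraries and the treated ones above them. Log2 changes in knockout cells were 4.22 ± 0.27 (adjusted p = 7.7e-25) for AIFM2 and 4.28 ± 0.31 (adjusted p = 9.4e-22) for U2SURP. RNU6-1, a gene of the U6 spliceosomal RNA, has near-identical copies, and its value is uncertain: it rose from 0.349 and 0.289 CPM to 4.79 and 4.79 CPM in knockout cells (chr1:10298802-10299802). Behind SNRPC, a protein of the U1 snRNP, the TTS region chr6:34773601-34774601 had 2.69 and 1.18 CPM and 2.48 and 2.67 CPM in untreated and IFN-treated WT cells and 10.3 and 9.72 CPM and 49.2 and 54.5 CPM in untreated and IFN-treated knockout cells. There the knockout was already above WT before treatment, by 2.40 ± 0.24 (adjusted p = 2.9e-14), and under IFN the gap was 4.33 ± 0.18 (adjusted p = 8.3e-36).

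In 3′ UTRs the rule named SAR1B, LINGO1 and MTMR6. The region in SAR1B (chr5:134604538-134605538), a GTPase of COPII vesicles, held 0.516 and 0.998 CPM, 1.09 and 1.33 CPM, 0.349 and 0.577 CPM and 13.4 and 14.7 CPM in untreated WT, IFN-treated WT, untreated knockout and IFN-treated knockout cells. MTMR6 encodes a phosphoinositide phosphatase, and its region (chr13:25247738-25248738) held 1.96 and 1.54 CPM, 1.78 and 2.36 CPM, 0.524 and 0.385 CPM and 12.7 and 10.4 CPM. The treated knockout libraries were the highest in each case, and at MTMR6 the untreated knockout libraries were the lowest. Log2 changes were 4.90 ± 0.32 (adjusted p = 5.7e-24) for SAR1B, 4.87 ± 0.21 (adjusted p = 5.8e-35) for LINGO1 and 4.63 ± 0.33 (adjusted p = 1.2e-21) for MTMR6. Other 3′ UTR regions rose from a like base: that of POU2F2, the transcription factor Oct-2 (chr19:42088762-42089762), went from 1.66 and 0.866 CPM to 17.8 and 19.1 CPM in knockout cells, and that of the protocadherin gene PCDHB7 (chr5:141175557-141176557) from 0.785 and 1.93 CPM to 18.4 and 19.1 CPM. In WT cells the same regions stayed between 0.908 and 1.98 CPM. The PCDHB genes are close copies of each other, so reads at PCDHB7 may be split between them.

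**Figure D4:**
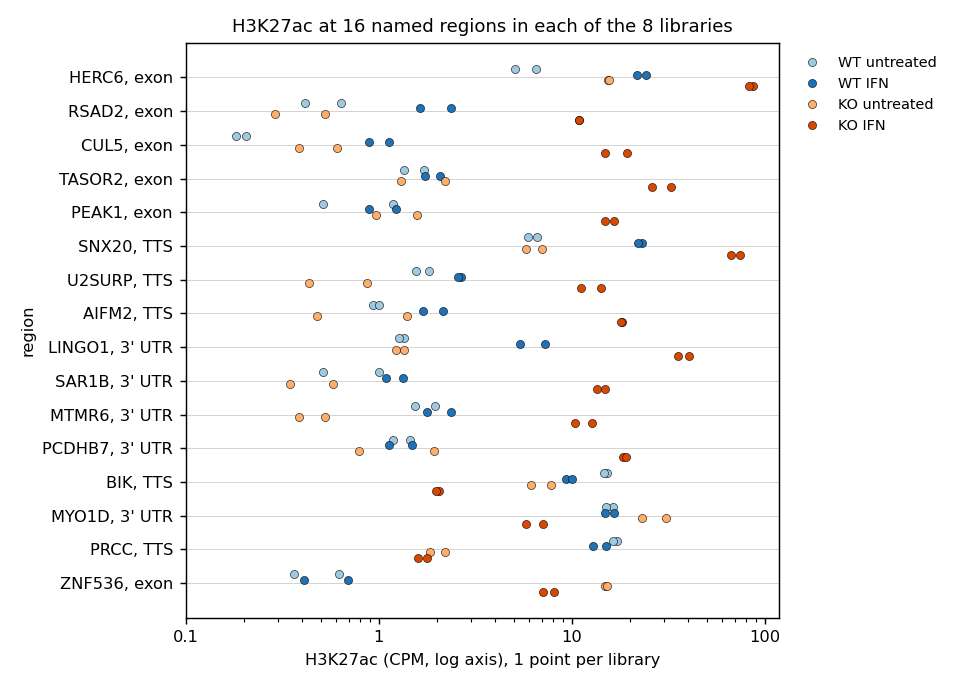
H3K27ac (CPM, log axis) at 16 named regions, 1 point per library and 1 color per group. At CUL5, TASOR2, PEAK1, U2SURP, AIFM2, SAR1B, MTMR6 and PCDHB7 both IFN-treated knockout libraries lie above 10 CPM and the other 6 below 3 CPM, BIK and MYO1D have their lowest points in the same 2 libraries, and PRCC and ZNF536 separate by genotype.

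IFN also lowered H3K27ac at regions in knockout cells. In the 3′ UTR of MYO1D, an unconventional myosin, the region chr17:32492475-32493475 had 16.2 and 15.0 CPM and 14.9 and 16.5 CPM in untreated and IFN-treated WT cells and 23.1 and 30.5 CPM and 5.77 and 7.04 CPM in untreated and IFN-treated knockout cells. The untreated knockout libraries were the highest and the treated ones the lowest, with a log2 change of -2.06 ± 0.16 (SE, adjusted p = 2.0e-19). The gene of the pro-apoptotic BH3-only protein BIK had a TTS region (chr22:43129406-43130406) with 15.2 and 14.7 CPM, 9.31 and 10.1 CPM, 7.77 and 6.16 CPM and 2.04 and 1.97 CPM in the same order, with a log2 change of -1.79 ± 0.25 in knockout cells (adjusted p = 7.1e-09). In exons the rule named EPHA1, an ephrin receptor, where exon 12 fell from 2.36 and 2.41 CPM to 0.799 and 0.376 CPM (-1.99, adjusted p = 2.0e-04), exon 5 of HFE, the gene of hereditary hemochromatosis, from 2.44 and 1.83 CPM to 0.621 and 0.563 CPM (-1.84, adjusted p = 8.7e-04), and exon 13 of ZMYM4, a zinc finger protein, from 3.67 and 4.81 CPM to 1.60 and 0.751 CPM (-1.82, adjusted p = 4.1e-06).

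Whether the 2 genotypes differed in their response to IFN was tested by the interaction term. The log2 change with IFN was larger in knockout than in WT cells at 220 members (81 exon, 76 TTS and 63 3′ UTR regions) and smaller or more negative at 161 (58, 59 and 44), where 4.66% and 2.51% of all tested regions were called in the 2 directions. With the sum of counts as the scale the split was 176 and 238 (42.5% rather than 57.7% in the first direction), and without the threshold on the fold the smaller or more negative responses (332) also outnumbered the larger ones. Of the 333 members raised in knockout cells, 190 had a called difference, as had 8 of the 11 raised in WT cells. Of the 239 that fell in knockout cells, 125 had a called difference in that direction. These sets were picked by changes in libraries that also enter the difference, so the overlaps are not independent of that choice and test nothing. The 3 of the 11 without a called difference were HERC6 (0.48 ± 0.20 SE, adjusted p = 0.128), RNF31 and SLC9A8 (0.03, adjusted p = 0.997).

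Among the named regions the difference was greatest at MTMR6 (4.38 ± 0.54 SE, adjusted p = 4.5e-10), followed by SAR1B (4.26 ± 0.67, adjusted p = 6.5e-07), and TASOR2 (3.76 ± 0.47, adjusted p = 7.7e-10) led the exons. Exon 6 of RGL1, an activator of Ral GTPases, held 1.76 and 2.45 CPM and 0.297 and 1.74 CPM in untreated and IFN-treated WT cells and 1.48 and 2.60 CPM and 12 and 12.1 CPM in untreated and IFN-treated knockout cells (chr1:183883331-183884331). Exon 15 of GOLGA4, a Golgi protein, held 0.930 and 0.908 CPM, 1.39 and 0.308 CPM, 0.873 and 0.577 CPM and 8.61 and 8.36 CPM in the same order (chr3:37324715-37325715). At both regions the treated knockout libraries alone exceeded 8 CPM, neither window holds an ISRE core, and the difference was 3.63 ± 0.50 (adjusted p = 1.5e-08) for RGL1 and 3.61 ± 0.65 (adjusted p = 1.1e-05) for GOLGA4. In the other direction the named regions included MYO1D (-2.07 ± 0.23, adjusted p = 7.1e-12) and a TTS region of NIPAL3, a putative magnesium transporter (chr1:24466689-24467689). NIPAL3 held 16.7 and 18.9 CPM, 16.4 and 20.5 CPM, 14.7 and 15.7 CPM and 4.17 and 4.88 CPM in the 4 groups, so that both treated knockout libraries were below the other 6 (-1.79 ± 0.24, adjusted p = 6.8e-09). For USP8 the difference was 1.80 ± 0.41 (adjusted p = 6.1e-04), a call lost without WT untreated replicate 1, and for RABL3 it was 1.93 ± 0.34 (adjusted p = 6.2e-06).

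**Figure D5:**
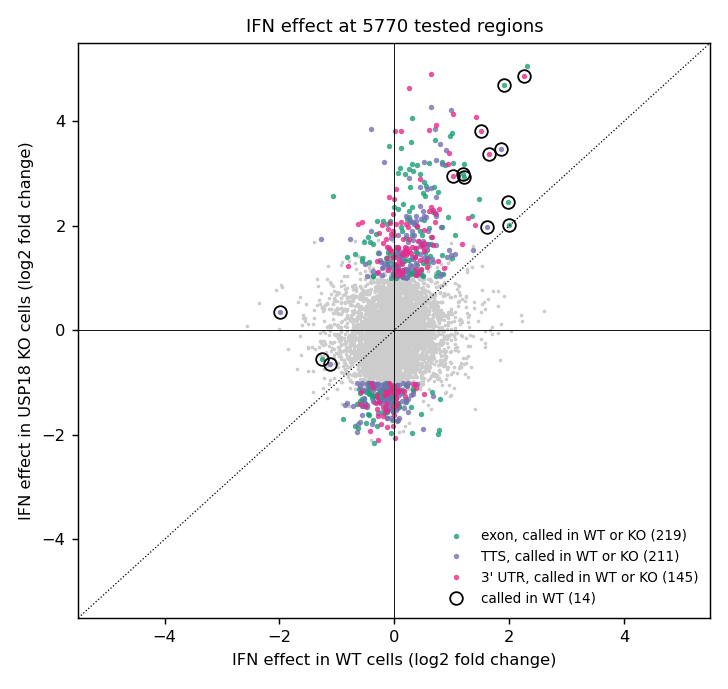
IFN effect in WT cells (x axis) and in USP18 knockout cells (y axis), as log2 fold changes, at the 5770 tested regions; colored points were called in either genotype, open circles mark the 14 called in WT cells and the dotted line is equality. Most colored points lie near 0 on the x axis and beyond 1 or below -1 on the y axis, and most were picked by their change on the y axis.

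Loss of USP18 went with differences at the regions before any IFN was given. In untreated cells 372 members were higher in the knockout (178 exon, 123 TTS and 71 3′ UTR regions) and 457 lower (143, 181 and 133), beside 5.66% of all tested regions higher and 10.8% lower. Of exon regions 7.65% were higher and 6.15% lower, of TTS regions 5.81% and 8.55%, and of 3′ UTR regions 5.35% and 10.0%. Among the exon regions within 3000 bp of a start site 85 of 873 were higher and 30 lower, and among those farther away 93 of 1454 were higher and 113 lower. For all tested regions the same split was 7.28% higher and 4.45% lower within 3000 bp, and 5.17% and 12.7% beyond. Scaling by the sum of counts left 267 members higher and 595 lower (31.0% rather than 44.9% of the called members higher) and moved the median log2 difference of all tested regions from -0.02 to -0.16. Under a filter of 30 counts 241 members were higher. Without the threshold on the fold the balance turned, with 963 higher and 738 lower.

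The largest of the named gains was in ZNF536, which encodes a zinc finger protein known from neurons. Its exon 4 region (chr19:30548669-30549669) held 0.620 and 0.363 CPM and 0.694 and 0.410 CPM in untreated and IFN-treated WT cells, and 14.8 and 15.2 CPM and 8.08 and 7.04 CPM in untreated and IFN-treated knockout cells. The knockout exceeded WT by 4.92 ± 0.31 (SE) on the log2 scale without IFN (adjusted p = 1.9e-24), and its TTS region by 4.80 ± 0.36 (adjusted p = 2.3e-20). ARPP19, an inhibitor of the phosphatase PP2A-B55, was higher at its last exon (chr15:52551502-52552502; 0.103 and 0.908 CPM in WT and 5.58 and 5.97 CPM in the knockout, untreated), and so was exon 11 of TTC38 (1.55 and 0.908 CPM and 8.73 and 7.03 CPM). In 3′ UTRs HES5, a target of Notch signaling, had 0.207 and 0.454 CPM in WT and 3.05 and 3.75 CPM in the knockout, and LHX3, a LIM homeobox factor of the pituitary, 0.310 and 1.18 CPM and 8.55 and 5.87 CPM. In none of these 4 did the untreated libraries of the genotypes overlap, and the log2 differences ran from 2.70 to 3.42 with adjusted p of 1.1e-08 (HES5) or less.

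Other regions were lower in the untreated knockout. The 3′ UTR of VPS53, a subunit of the GARP tethering complex, held 7.33 and 7.71 CPM in untreated WT and 0.436 and 0.481 CPM in untreated knockout cells (chr17:518379-519379; -4.01 ± 0.35 SE, adjusted p = 9.3e-17). In the last exon of CHP1, a calcium-binding partner of sodium/proton exchangers, the region chr15:41278909-41279909 had 61.2 and 59.5 CPM and 58.2 and 61.9 CPM in untreated and IFN-treated WT cells and 8.46 and 7.22 CPM and 9.59 and 9.48 CPM in untreated and IFN-treated knockout cells. Every WT library was thus above every knockout library, with or without IFN (-2.94 ± 0.13, adjusted p = 4.4e-34 without it). At TTS regions the rule named TWIST1, a basic helix-loop-helix factor (8.88 and 7.71 CPM in WT and 0.873 and 0.866 CPM in the knockout; -3.23 ± 0.31, adjusted p = 2.6e-15), PRCC and CLECL1. The region at PRCC, a gene fused in papillary renal carcinoma, lies at chr1:156801071-156802071 and held 17.1 and 16.2 CPM and 1.83 and 2.21 CPM (-3.04 ± 0.22, adjusted p = 7.3e-21). Among exons those of KIAA2012, ANKAR and SPINT4 fell most, with log2 differences of -2.91, -2.72 and -2.55.

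Under IFN the genotypes differed at more regions. There 639 members were higher in the knockout (276 exon, 222 TTS and 141 3′ UTR regions) and 622 lower (200, 254 and 168), with 11.3% and 13.4% of all tested regions called in the 2 directions. Of exon regions 11.9% were higher and 8.60% lower, of TTS regions 10.5% and 12%, and of 3′ UTR regions 10.6% and 12.7%. Scaling decided the balance: by the sum of counts 388 were higher and 932 lower (29.4% rather than 50.7% of called members higher) with the median log2 difference of all tested regions at -0.27 rather than 0.00, and by library totals 512 and 747 (40.7%), with a median of -0.12. The comparisons without and with IFN share no library, but both rest on the same 2 genotypes.

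Many of the regions higher in the knockout under IFN have been described, since TASOR2, CUL5, PEAK1, SNRPC, AIFM2, PCDHB7, SAR1B and POU2F2 headed their classes here. A TTS region of HEIH, a long noncoding RNA, was the second of its class (chr5:180828682-180829682). It held 2.79 and 2.00 CPM and 3.27 and 2.56 CPM in untreated and IFN-treated WT cells and 13.6 and 15.9 CPM and 39.1 and 38.8 CPM in untreated and IFN-treated knockout cells, and the 4 groups stepped up with no overlap between the knockout and WT libraries (3.73 ± 0.18 SE, adjusted p = 6.5e-32 under IFN). Regions lower in the knockout under IFN included exon 5 of BSN, a presynaptic scaffold (3.07 and 5.23 CPM in WT and 0.0888 and 0.563 CPM in the knockout), exon 2 of SLITRK5, a synaptic adhesion protein (14.1 and 11.0 CPM and 0.799 and 1.22 CPM), and exon 17 of CAMSAP2, which binds microtubule minus ends (22.5 and 18.6 CPM and 2.04 and 1.69 CPM). Their log2 differences were -3.65, -3.63 and -3.45, with adjusted p of 1.8e-10, 1.1e-19 and 5.0e-25. The 3′ UTR regions of L3MBTL3, a histone methyl-lysine reader (19.1 and 18.5 CPM and 2.40 and 2.25 CPM), and GPR55, a lysophospholipid receptor (18.4 and 23.6 CPM and 1.95 and 3.57 CPM), and the TTS region of TMTC2 (15.2 and 15.5 CPM and 1.69 and 1.97 CPM) were lower as well, with log2 differences of -3.01, -2.93 and -3.06. A TTS region of REXO1L2P was also among the 3 largest falls, but this gene has near-identical copies and its value is uncertain.

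Few of the called regions belonged to genes on a list of interferon-stimulated genes, and genes off the list were not checked for such a role. The list of 117 genes had 58 regions in the 3 classes, at 38 genes, and 50 of the regions were tested. In WT cells 3 of the 50 rose with IFN and 1 fell, and in knockout cells 13 rose and 4 fell. The median log2 change of the 50 was 0.06 in WT and 0.35 in knockout cells, beside -0.01 for all tested regions in both. Of all tested regions 7.14% rose and 4.28% fell in knockout cells. By class, 7 of 15 exon regions rose and 1 fell, 0 of 16 TTS regions rose or fell, and 6 of 19 3′ UTR regions rose and 3 fell there, and no test compared the classes. Regions were counted by the gene of the annotated transcript and not by the nearest start site. The TTS region of RNF31 near the start of IRF9, which rose in both genotypes, is therefore not among the 16, although IRF9 is on the list. The count of 0 at TTS regions is by edgeR and by DESeq2, with 2 and 1 negative changes at an unadjusted p under 0.05 and no positive one.

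Exon 2 of CXCL11, a chemokine that binds CXCR3 (chr4:76034815-76035815), held 2.48 and 2.27 CPM, 3.07 and 2.05 CPM, 1.75 and 0.674 CPM and 14.4 and 13.3 CPM in untreated WT, IFN-treated WT, untreated knockout and IFN-treated knockout cells. It was the largest rise of the list after RSAD2 in knockout cells (3.48 ± 0.27 SE, adjusted p = 5.4e-20), while the change in WT cells was 0.12 ± 0.32 (adjusted p = 0.956). CXCL9, another CXCR3 ligand, had 3 overlapping 3′ UTR windows. The strongest (chr4:76001902-76002902) held 6.30 and 5.26 CPM, 8.22 and 7.69 CPM, 17.4 and 13.7 CPM and 39.0 and 31.1 CPM in the same groups. Here the knockout was above WT before treatment (1.43 ± 0.18, adjusted p = 1.5e-10) and rose further with IFN (1.17 ± 0.14, adjusted p = 1.8e-11, lost without KO IFN replicate 1). Exon 2 of HLA-C, a class I antigen-presenting molecule, had 7.13 and 7.17 CPM, 11.0 and 9.64 CPM, 14.1 and 14.7 CPM and 38.4 and 42.0 CPM, and it rose with IFN in knockout cells by 1.48 ± 0.13 (adjusted p = 1.1e-16). Reads of HLA-C can be shared with related genes, which makes its values uncertain. APOL6 had 3 3′ UTR windows tested, of which the one at chr22:35663095-35664095 rose in knockout cells, from 3.75 and 2.98 CPM to 9.23 and 8.54 CPM (1.39 ± 0.23, adjusted p = 3.3e-07).

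Other calls of the list in knockout cells were weak: those of APOL3, DDX60L, ADAR and IFI44L were not made by DESeq2, and each was lost in 2 of the 8 fits with 1 library left out. For APOL3 these were the fits without KO untreated replicate 2 or KO IFN replicate 1, for DDX60L and IFI44L without KO untreated replicate 1 or KO IFN replicate 2, and for ADAR without KO untreated replicate 1 or KO IFN replicate 1.

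Some interferon-stimulated genes lost H3K27ac at their ends. RNF213, a giant ubiquitin ligase with antimicrobial activity, had 3 windows in its last exon. The window chr17:80398175-80399175 held 19.7 and 18.1 CPM, 13.2 and 14.9 CPM, 12.7 and 11.6 CPM and 2.84 and 3.57 CPM in untreated WT, IFN-treated WT, untreated knockout and IFN-treated knockout cells. The treated knockout libraries were the lowest in all 3 windows, and the change at this window was -1.92 ± 0.21 (SE, adjusted p = 3.5e-13) in knockout cells and -0.43 ± 0.15 (adjusted p = 0.252) in WT cells. IFI16, a DNA sensor, had 2 overlapping TTS windows that differed by genotype. The higher of them (chr1:159055578-159056578) held 17.6 and 17.7 CPM and 13.4 and 15.0 CPM in untreated and IFN-treated WT cells and 4.97 and 4.91 CPM and 2.48 and 3.94 CPM in untreated and IFN-treated knockout cells. In untreated cells the log2 difference of knockout to WT was -1.83 ± 0.19 (adjusted p = 5.6e-14). A window in exon 20 of STAT2, a subunit of ISGF3, was called lower with IFN in knockout cells (1.92 and 2.69 CPM and 0.710 and 1.5 CPM; -1.06, adjusted p = 0.0353), but not by DESeq2, nor without KO untreated replicate 2 or KO IFN replicate 1.

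A list of 62 genes of NF-kB and inflammation had 28 regions, all tested. In WT cells IFN changed none of them, by edgeR or DESeq2, and 0 had an unadjusted p under 0.05. In the knockout 4 were higher and 1 lower without IFN, and 8 were higher and 1 lower with it, beside 5.66% higher and 10.8% lower of all tested regions without IFN and 11.3% and 13.4% with it. The median log2 difference of the 28 was 0.41 without and 0.45 with IFN, against -0.02 and 0.00 for all tested regions. JUNB, an AP-1 subunit, had a TTS region (chr19:12793126-12794126) with 16.3 and 15.6 CPM, 17.3 and 16.6 CPM, 41.8 and 46.4 CPM and 74.2 and 63.1 CPM in untreated WT, IFN-treated WT, untreated knockout and IFN-treated knockout cells (2.02 ± 0.12 SE, adjusted p = 3.0e-27 under IFN). Exon 4 of LTB, the gene of lymphotoxin beta, held 30.1 and 33.3 CPM, 35.7 and 37.1 CPM, 97.1 and 98.5 CPM and 104 and 102 CPM (chr6:31580506-31581506; 1.62 ± 0.10, adjusted p = 5.2e-26 without IFN). At both genes all 4 knockout libraries were above all 4 WT libraries. With IFN in knockout cells 2 of the 28 rose and 1 fell by edgeR, beside 7.14% and 4.28% of all tested regions. The response was larger in the knockout at 0 and smaller or more negative at 1, by edgeR and by DESeq2. At an unadjusted p under 0.05, 2 and 1 of these differences were positive. The last exon of IL6, the gene of interleukin 6, went from 0.611 and 0.674 CPM to 3.19 and 2.72 CPM with IFN in knockout cells (2.19 ± 0.45, adjusted p = 5.4e-05), a call that DESeq2 did not make. In WT cells IL6 changed by 1.35 ± 0.70 (adjusted p = 0.576), and the difference was not called (0.84 ± 0.93, adjusted p = 0.683). A TTS region of PLAU, which encodes urokinase, fell with IFN in knockout cells, from 26.4 and 37.4 CPM to 11.4 and 13.5 CPM (-1.35 ± 0.14, adjusted p = 3.7e-14). The calls of the exon regions of NFKBIZ (1.02) and SOD2 (1.02) without IFN lay just past a log2 difference of 1. They were lost under scaling by library totals or the sum of counts, and without WT untreated replicate 2 or KO untreated replicate 2.

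From a list of 27 genes of the integrated stress response 10 regions were tested, and 2 were higher in the knockout both without and with IFN. They were the single exon of CEBPB, a transcription factor of myeloid cells (37.7 and 42.1 CPM in untreated WT and 85.8 and 98.1 CPM in untreated knockout cells; 1.20 ± 0.10 SE, adjusted p = 2.4e-18), and exon 1 of SLC7A11, the cystine transporter (14.8 and 15.5 CPM and 36.9 and 31.8 CPM; 1.18 ± 0.13, adjusted p = 9.7e-13). Both windows overlap a promoter window. With IFN the CEBPB call was lost without WT IFN replicate 2 and under scaling by library totals or the sum of counts. Among 23 regions of 44 myeloid genes, 1 was higher and 1 lower in the untreated knockout, and 5 were higher and 4 lower under IFN, against 5.66% and 10.8% of all tested regions without and 11.3% and 13.4% with IFN. The 3′ UTR of ITGAX, the integrin CD11c, held 0.620 and 1.18 CPM, 2.08 and 1.44 CPM, 1.22 and 0.866 CPM and 9.76 and 9.48 CPM in the 4 groups and rose with IFN in knockout cells by 3.18 ± 0.29 (adjusted p = 6.9e-16). Exon 7 of VCAN, a proteoglycan of monocytes, rose from 1.22 and 0.866 CPM to 6.66 and 7.61 CPM (2.75 ± 0.31, adjusted p = 2.2e-12). Exon 2 of PRTN3, a granule protease of immature myeloid cells, fell from 31.8 and 33.5 CPM to 12.1 and 11.4 CPM (-1.47 ± 0.13, adjusted p = 7.0e-17). The summed level of the monocytic promoters, given above, was higher in the knockout, as was the median level of all tested promoters. The part of either in these differences was not tested.

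Called regions of collagen, laminin and cadherin genes went mostly one way, and protocadherins were listed apart. Of 27 tested regions of collagen, laminin and cadherin genes, 0 were higher and 5 lower in the untreated knockout, 0 were higher and 8 lower under IFN, and 1 rose and 5 fell with IFN in knockout cells. The 2 counts of 0 are by edgeR and by DESeq2, and at an unadjusted p under 0.05 edgeR had 4 and 2 positive differences and DESeq2 1 and 0. The median log2 difference of the 27 was -0.34 and -0.56 in the first 2 comparisons. Exon 26 of COL9A3, a cartilage collagen (chr20:62832560-62833560), held 20.7 and 22.9 CPM, 17.7 and 19.8 CPM, 14.1 and 18 CPM and 5.06 and 5.82 CPM in untreated WT, IFN-treated WT, untreated knockout and IFN-treated knockout cells. The treated knockout libraries were the lowest (-1.56 ± 0.18 SE, adjusted p = 3.8e-12). Exon 11 of COL12A1, a fibril-associated collagen, differed by genotype, with 3.20 and 2.90 CPM in untreated WT and 0.611 and 0.674 CPM in untreated knockout cells (-2.23 ± 0.40, adjusted p = 3.5e-06). The 1 rise was exon 2 of LAMB1 (1.41, adjusted p = 0.00929), which DESeq2 did not call and which was lost without KO untreated replicate 1 or KO IFN replicate 1. Among 104 tested regions of zinc finger genes 8 were higher and 8 lower in the untreated knockout and 8 and 11 under IFN, where 5.66% and 10.8% of all tested regions were called without IFN and 11.3% and 13.4% with it. Histone genes had 21 tested regions with 0 calls in the untreated knockout by edgeR and DESeq2 (4 positive and 5 negative changes at an unadjusted p under 0.05 by edgeR) and 1 fall under IFN, H4C11. Under IFN 3 of the 21 differences were positive and 15 negative at an unadjusted p under 0.05 by edgeR. The median log2 difference of the 21 was then -0.30, beside 0.00 for all tested regions. The HOX genes had 8 tested regions, of which 2 were lower in the untreated knockout (HOXC10 and HOXB7) and 1 under IFN. DESeq2 called 0 of them lower without IFN (1 negative and 4 positive at an unadjusted p under 0.05), the call of HOXC10 (adjusted p = 0.0491 by edgeR) was lost without 6 of the 8 libraries in turn (all but WT IFN replicate 1 and KO IFN replicate 2), and the median log2 difference of the 8 was 0.23. The protocadherins had 13, of which 1 was higher in the untreated knockout, and 2 were higher and 1 lower under IFN.

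The share of windows that hold the ISRE core is given here as a description, with no test. The core was in 8 of the 11 windows raised in WT cells (72.7%), including all 5 exon windows, and in 156 of the 333 raised in knockout cells (46.9%), compared with 13.7% of the 5770 tested members. Of all 424 tested regions raised in WT cells 67.2% held it. By class the share in knockout cells was 49.6% for exon, 43.5% for TTS and 47.4% for 3′ UTR windows, next to 47.0% of all tested regions raised there. Among the 239 windows that fell in knockout cells it was 7.11%, beside 10.6% of all tested regions that fell there. Of the 220 windows whose IFN response was larger in the knockout 51.8% held it, and of the 161 in the other direction 6.21%. For all tested regions called in these directions the shares were 48.2% and 10.05%. In the genotype comparison without IFN the share was 10.5% of the windows higher in the knockout and 20.1% of those lower. It was 15.1% and 19.4% of all tested regions called there. The AP-1 motif TGANTCA was in 25.8% of the tested members and 33.3% of those raised in knockout cells, and the NF-kB motif (GGG, any 2 bases, then TTTCC) in 5.04% and 5.71%. Of all tested regions raised there, 37.8% held the AP-1 motif and 5.38% the NF-kB motif, and the AP-1 motif was in 31.1% of all windows. Among the 639 windows higher in the knockout under IFN, 8.76% held the NF-kB motif, beside 6.62% of all tested regions higher there. A short core of the CTCF motif (GCCCCCT or GCGCCCT) was in 36.3% of the tested members. It was in 42.7% of those higher and 23.9% of those lower in the untreated knockout, and in 39.1% and 23.8% under IFN. The split was not particular to the members. Among all tested regions the core was in 30.69% of those higher and 15.96% of those lower in the untreated knockout. Under IFN these shares were 27.24% and 17.01%. Of all windows 25.28% held this core, and of the promoter windows 56.95%. The PU.1 motif (GAG directly followed by GAAGT) was in 10.9% of the tested members and 9.61% of those raised by IFN in knockout cells. Of all tested regions raised there 9.62% held it.

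A change at one of these regions did not usually come with a called change at the promoter of the same gene. Of the members raised by IFN in knockout cells, 246 belonged to a gene with a tested promoter window, and for 25 of them (10.2%) a promoter rose, while for 1 it fell. Among the 3398 members with such a promoter and no call of their own, a promoter rose for 117 (3.44%). Of the members that fell, 154 had a tested promoter and 22 of these (14.3%) had one that fell, and for 5 it rose. Among those with no call a promoter fell for 52. Without IFN the knockout was higher at a promoter for 72 of 248 raised members (29.0%) and lower for 47 of 300 lowered members (15.7%), and with IFN these counts were 154 of 453 (34.0%) and 83 of 419 (19.8%). Among members with no call of their own a promoter was higher for 220 and lower for 76 of 3250 without IFN, and higher for 442 and lower for 101 of 2926 with it. A lowered member had a higher promoter in 9 and 34 cases, and a raised member a lower one in 1 and 4. Windows near a start site can overlap the promoter window they are compared with, so part of these counts rests on shared reads. At LRRK1, whose rise in the 3′ UTR lies 151523 bp from the nearest start site, the window overlaps no promoter window.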

How the data were processed

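H3K27ac ChIP-seq and matched input libraries were made from THP-1 cells of both genotypes, untreated or given IFN, and the 8 H3K27ac libraries in 4 groups were used here. The authors mapped reads to hg38 with Bowtie2 and counted tags with HOMER in 1000 bp around pooled ATAC-seq peaks. The deposited values are estimated counts that come in steps of a part of a tag (52.2% were whole), and they were rounded. HOMER annotated each region by its centre, with a priority order of classes. The input libraries have no column in this table and were not used.

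Regions that reached 10 counts in 2 or more libraries were tested with the quasi-likelihood test of edgeR 4.0.16 in R 4.3.3 (TMM scaling, 1 model over the 4 groups), with Benjamini-Hochberg adjustment over all 123276 tested regions. A region was called at an adjusted p under 0.05 and a log2 change over 1 in size. SEs of log2 changes are the size of the change divided by the square root of its F statistic, and CPM values are scaled by TMM. The genotype difference in the IFN effect is the interaction term. DESeq2 1.42.0, other scalings and filters, a replicate block and leaving out each library were alternatives. Tags in regions ran from 9046141 to 12935453.5, and the common coefficient of variation was 0.0737.

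In data simulated for the IFN effect in WT cells on 123276 regions, 129 of 200 regions changed 3-fold were recovered, 88 of the 93 with a mean of 30 counts or more, and 2 unchanged regions were called. Named regions are, per comparison and class, the 3 largest rises and the 3 largest falls among called regions whose libraries did not overlap and whose higher group had a mean of at least 2 CPM, 1 per gene, every tested region of the interferon list and the highest region of each class. SLC9A8, USP8, RABL3 and MATN2, and the regions from the other lists, were named after their values were seen. The members and lists were chosen with earlier results of these data known. The labels do not say what a replicate number shares, and same-numbered libraries did not deviate together (correlations of deviations from 0.00117 to 0.0463). One further motif and some regions that the rule takes in are not reported here.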

Additional observations from a re-analysis of the deposited data

Results flagged for a closer look

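The regions printed here were picked out because a test of the difference itself (the interaction term, by edgeR) found that IFN changed H3K27ac unlike in the 2 genotypes. Most were named for the size of that difference or of the change in knockout cells, so the sizes describe these regions and are not a sample of all. Each value is the log2 change with IFN in knockout cells minus that in WT cells.

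Among exons the response was larger in the knockout at TASOR2 3.76, RGL1 3.63, GOLGA4 3.61, CXCL11 3.36, PEAK1 3.32, RSAD2 2.78, VCAN 2.47, USP8 1.80 and HERC5 1.72. At TTS regions the difference was RNU6-1 4.26, U2SURP 3.65, ARG2 3.38, AIFM2 3.24, MATN2 2.35, SNRPC 1.93, SNX20 1.61 and HEIH 1.10. In 3′ UTRs the same direction was found for MTMR6 4.38, SAR1B 4.26, PCDHB7 3.80, POU2F2 3.24, LINGO1 2.60, SNX20 2.30, ITGAX 2.24, RABL3 1.93, LRRK1 1.74, CXCL9 1.25 and APOL6 1.04.

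A smaller or more negative response in the knockout was found in the exons of EPHA1 -2.74, LRP4 -1.83, ZMYM4 -1.51, SLITRK5 -1.46, COL9A3 -1.34, PRTN3 -1.30, CAMSAP2 -1.07 and COL23A1 -1.06. TTS regions with this direction were PDE6H -1.93, CUEDC1 -1.79, NIPAL3 -1.79, CDH23 -1.55, PLAU -1.48, MIR6084 -1.28, BIK -1.17 and LOC100128593 -1.16. The 3′ UTR regions were MYO1D -2.07, SPNS3 -1.80, LHX3 -1.74, RNF213 -1.49 and RNF213 -1.17, of which the RNF213 windows lie close together in 1 exon.

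Some of these calls rest on single libraries or on the tool. DESeq2 did not call the difference at ARG2, RNU6-1, MATN2, CXCL9, APOL6, CDH23, LOC100128593, ZMYM4, EPHA1, LRP4 and LHX3, and scaling by the sum of counts lost HEIH and APOL6. Without WT untreated replicate 1 the calls lost were those of APOL6, CAMSAP2, CDH23, CXCL9, HEIH, LHX3, MATN2, SNRPC and USP8. Those lost without WT untreated replicate 2 were APOL6, ARG2, COL23A1, HERC5, ITGAX, LOC100128593, LRP4, PEAK1, RNU6-1 and RSAD2. Without WT IFN replicate 1 the calls lost were those of APOL6, CAMSAP2 and SLITRK5. Those lost without WT IFN replicate 2 were APOL6, CDH23, CXCL9, HEIH, LHX3, LOC100128593, LRP4 and MATN2. Without KO untreated replicate 1 the calls lost were those of CXCL9, HEIH, LHX3, LRP4 and MATN2. Those lost without KO untreated replicate 2 were APOL6, CAMSAP2, CDH23, COL23A1, LRP4, SLITRK5 and ZMYM4. Without KO IFN replicate 1 the calls lost were those of APOL6, CDH23, LHX3, LOC100128593 and SLITRK5. Those lost without KO IFN replicate 2 were CAMSAP2, COL23A1, CXCL9, LRP4, MATN2 and ZMYM4.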

How the results depend on the processing

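With 2 libraries a group, low regions limit what can be called, and the balance of rises and falls depends on the scaling and the fold threshold, as given with the counts. Leaving out 1 library at a time gave 8 to 13 members raised and 1 to 4 lowered by IFN in WT cells, 320 to 374 higher and 393 to 459 lower in the untreated knockout, 555 to 640 and 570 to 654 under IFN, 283 to 334 raised and 207 to 270 lowered by IFN in knockout cells, and 178 to 214 and 128 to 186 for the genotype difference. The shares of counts then ran from 1.73 to 1.77% for exons, 1.71 to 1.73% for TTS and 0.725 to 0.744% for 3′ UTR regions. In the order of the comparisons as just listed, dropping the fold threshold gave 23 and 11, 963 and 738, 1117 and 944, 595 and 678, and for the smaller responses of the genotype difference 332. DESeq2 called 6 members raised and 0 lowered in WT cells, and a fit of only the WT libraries called 5 lowered. Members over 3000 bp from a start site held 6 of the 11 raised in WT cells and 230 of the 372 higher in the untreated knockout, for which a filter at 30 counts gave 241. Scaling by the sum of counts gave 388 in place of 639 higher under IFN and 365 in place of 239 lowered by IFN in knockout cells. The shares of counts over 3000 bp from a start site were 0.659%, 0.893% and 0.631% for exon, TTS and 3′ UTR regions (1.75%, 1.72% and 0.732% over all), and without windows that overlap a promoter window 1.05% for exons and 1.35% for TTS. With all regions, tested or not, the median levels were 1.47, 1.53 and 1.42 CPM. The filter and the limits on distance change the number of regions, the sum of counts changes the scale, and dropping the fold threshold changes the rule for a call. For DESeq2, the smaller fit and the single libraries the cause was not tested.

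Whether replicate numbers pair samples is not stated in the labels, and the correlation of same-numbered deviations was 0.0112, 0.00418, 0.00117 and 0.0463 in the first 4 comparisons. With the replicate number as a block the counts were 12 and 4, 372 and 460, 634 and 617, 330 and 239, and 220 and 163. Of 4892 recomputed values of the 293 effects of named regions, 4626 kept their side of the threshold, 266 lost the call with the same direction and 0 reversed.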
